A study of Mus musculus with 16 samples.

Results

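Dars, Mcm6, R3hdm1, Ubxn4, Zranb3, Rab3gap1, Cxcr4, Ccnt2 and Lct are neighbouring genes of mouse chromosome 1. They were taken by symbol from a table of exon read counts, in which they are 9 of 38087 rows, and all 9 passed the filter on low counts in every comparison. The set was chosen with results of these data in view, above all the difference of Dars and Mcm6 between testes of germ-free mice (GF, raised without microbes) and testes of conventionally raised mice (CV, with a gut microbiota). That difference is therefore described, and nothing is read from whether these genes pass a test on it. The other genes stand beside it as the neighbourhood.

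Total RNA was sequenced from 3 GF and 4 CV whole testes of males, and from 5 GF and 4 CV whole ovaries of females. All 16 libraries came from mice labelled C57BL/6j, aged 15 to 16 weeks and sampled 2 to 4 h after lights on (zeitgeber time), and the labels give no transgene, drug or batch. Nothing in the labels tells whether replicate libraries stem from different mice. The p-values therefore measure the spread between samples only, and that spread may be technical. Nor do the labels say whether GF and CV mice came from 1 colony. Tissue and sex cannot be told apart. Totals were 25880591 to 28266867 counts per testis library and 12912251 to 15907297 per ovary library. Markers matched the tissue labels: 6 spermatid genes summed to between 15419 and 17297 CPM (counts relative to library size, as edgeR's cpm function gives them, with library sizes scaled by TMM, which corrects for unequal composition) in testes and to at most 1.64 CPM in ovaries, and 6 oocyte genes to between 116 and 203 CPM in ovaries and between 18.8 and 22.6 CPM in testes.

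The genes belong to unrelated cellular machines. MCM6 is a subunit of the ring-shaped MCM helicase, which is loaded on DNA at replication origins and unwinds it ahead of the polymerases, in dividing cells such as germ cells that prepare for meiosis and the granulosa cells of growing follicles. DARS (aspartyl-tRNA synthetase) charges its transfer RNA with aspartate for protein synthesis in the cytosol and sits in a large complex with other synthetases and scaffold proteins. ZRANB3 remodels stalled replication forks, UBXN4 recruits the ATPase VCP to the endoplasmic reticulum for the removal of misfolded proteins, RAB3GAP1 acts on the vesicle GTPases RAB3 and RAB18, CCNT2 is a cyclin that partners CDK9 in the elongation factor P-TEFb, CXCR4 is the receptor of the chemokine CXCL12, and LCT is the lactase of the small intestine. In humans, an intron of MCM6 carries an enhancer of LCT.

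In GRCm38 the genes run from Ccnt2 (plus strand, chr1:127774164-127808061) through Rab3gap1 (plus, chr1:127868773-127943868), Zranb3 (minus, chr1:127954184-128103047), R3hdm1 (plus, chr1:128103301-128237736), Ubxn4 (plus, chr1:128243964-128279378), Lct (minus, chr1:128284756-128328318), Mcm6 (ENSMUSG00000026355, minus, chr1:128331590-128359664) and Dars (ENSMUSG00000026356, minus, chr1:128363707-128417368) to Cxcr4 (minus, chr1:128588199-128592293). Mcm6 and Dars lie on the same strand, and 4042 bases separate the start of Mcm6 from the end of Dars. R3hdm1 and Zranb3 start on opposite strands with 253 bases between their starts. No exon of a member overlaps an exon of another. The only exon overlap with any annotated gene was that of Zranb3 with the antisense Gm28800, over 706 bases or 7.78% of its exon length.

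The start regions of these pairs are shown because Mcm6 and Dars went opposite ways in the testis and because R3hdm1 and Zranb3 share one. Each is the RefSeq window from 250 bases before to 50 bases after the annotated transcript start, in GRCm38.p6, written 5′ to 3′ along the gene's own strand. RefSeq starts can differ from the gene ends given above. Capitals mark TTTGGCGC, a form of the site read by E2F factors, in Mcm6 (minus, chr1:128359656-128359955), the GC box GGGCGG in Dars (minus, chr1:128417367-128417666) and ATTGG, which reads CCAAT on the other strand, in R3hdm1 (plus, chr1:128103056-128103355).
Mcm6: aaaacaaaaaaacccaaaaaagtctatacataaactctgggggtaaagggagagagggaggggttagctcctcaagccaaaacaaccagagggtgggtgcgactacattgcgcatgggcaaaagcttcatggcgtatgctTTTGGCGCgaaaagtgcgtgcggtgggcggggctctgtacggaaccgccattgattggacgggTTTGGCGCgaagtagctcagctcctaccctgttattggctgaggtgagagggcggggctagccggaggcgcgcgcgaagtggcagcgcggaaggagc
Dars: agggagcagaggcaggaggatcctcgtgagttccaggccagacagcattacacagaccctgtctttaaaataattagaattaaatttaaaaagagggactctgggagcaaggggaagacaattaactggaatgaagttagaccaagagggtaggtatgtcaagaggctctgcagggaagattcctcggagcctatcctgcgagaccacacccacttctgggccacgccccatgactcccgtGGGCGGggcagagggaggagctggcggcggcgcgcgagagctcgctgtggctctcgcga
R3hdm1: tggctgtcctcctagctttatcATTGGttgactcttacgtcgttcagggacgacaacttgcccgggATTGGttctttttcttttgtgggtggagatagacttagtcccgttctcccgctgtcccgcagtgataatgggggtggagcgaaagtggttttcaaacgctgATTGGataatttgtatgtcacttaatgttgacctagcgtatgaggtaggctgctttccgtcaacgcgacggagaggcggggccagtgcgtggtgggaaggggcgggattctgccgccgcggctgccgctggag

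Windows were found for 9 of 9 genes (11 windows, as Zranb3 and R3hdm1 have a second start), and TTTGGCGC, TTTCCCGC, CCAAT and GGGCGG were searched on both strands. In these windows no match overlapped another of a different motif. In the Mcm6 window TTTGGCGC begins at positions -110 and -47 from the transcript start, beside 2 CCAAT and 2 GGGCGG matches. TTTGGCGC occurred in 0.514% of 32851 mouse windows and at 2 or more positions in 2 of them (0.00609%), and TTTCCCGC in 1.07%. Neither form was in the window of another of the 9 genes. The Dars window holds 1 GGGCGG, at -9, and GGGCGG was in 35.7% of all windows. The R3hdm1 window holds ATTGG at -228, -184 and -83, all within the stretch that it shares with the Zranb3 window, and CCAAT on either strand was in 37.4% of all windows. A match is a description of the letters and says nothing of binding, and the absence of a match says only that these letters are not in this window.

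In GF testes the RNA of Dars was lower and that of Mcm6 was higher than in CV testes, in every library. Dars had 111, 116 and 112 CPM in GF testes, against 194, 182, 181 and 187 CPM in CV testes. The GF libraries lay close together and far below the lowest CV library. The means were 113 ± 2.49 CPM in GF and 186 ± 5.90 CPM in CV (SD, n = 3 and 4), a log2 fold change of -0.70 (SE 0.0351), or 0.614 of the CV level. Mcm6 had 50.4, 56.0 and 47.8 CPM in GF testes, against 36.9, 35.7, 36.0 and 40.2 CPM in CV testes. All GF libraries lay above all CV libraries. The means were 51.4 ± 4.20 CPM in GF and 37.2 ± 2.05 CPM in CV, a log2 fold change of 0.48 (SE 0.0573), or 1.40 times the CV level. Beside these, the median over 20269 genes tested was a log2 fold change of 0.0035 and the median absolute value was 0.0901. At an adjusted p under 0.05 (edgeR quasi-likelihood test, Benjamini-Hochberg over all genes tested), 2 of 9 genes were called, Dars lower and Mcm6 higher, against 8.08% of all genes (3.67% higher and 4.41% lower), and nothing is read from that count since both were chosen on this contrast. In a fit of all 16 libraries together 122 genes were called in place of 1638, Dars among them and Mcm6 not. Without the library GF2, 996 genes were called.

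**Figure D1:**
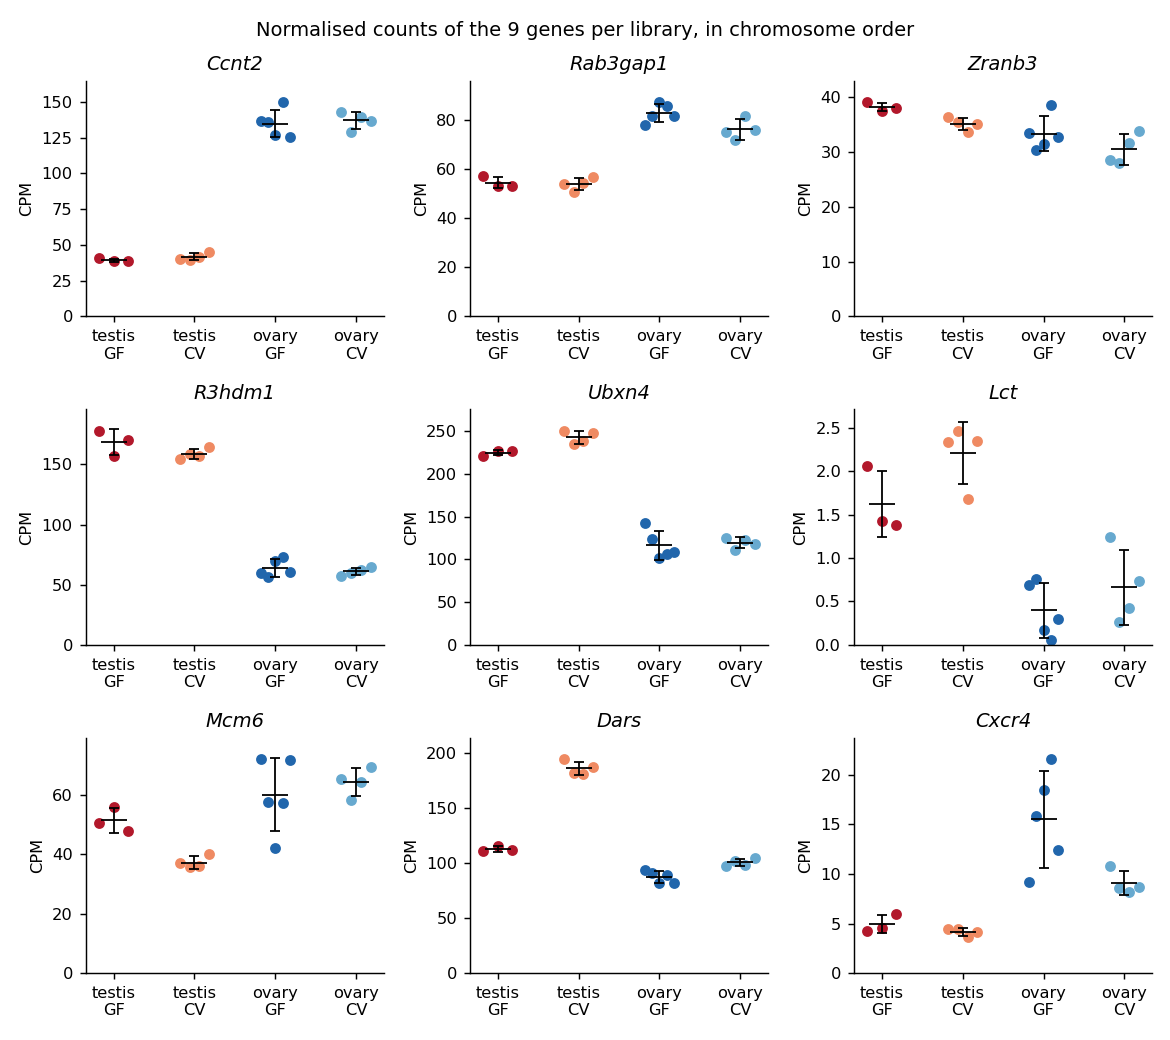
CPM (vertical axes, from 0) of each gene in each library, with the group mean and SD as a bar. Groups run from testis GF and testis CV to ovary GF and ovary CV, and panels follow the order on the chromosome. Dars is lower and Mcm6 higher in the 3 GF testes than in the 4 CV testes, with no overlap, while the groups of Rab3gap1, Ccnt2 and R3hdm1 overlap within the testis.

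Because both genes were counted in the same library, their ratio needs no scaling between libraries. Mcm6 counts divided by Dars counts were 0.454, 0.484 and 0.425 in GF testes, against 0.190, 0.196, 0.199 and 0.215 in CV testes. Every GF testis lay above every CV testis, and the ratio averaged 0.455 ± 0.0292 in GF and 0.200 ± 0.0105 in CV (SD, n = 3 and 4). In ovaries it was 0.766, 0.636, 0.514, 0.644 and 0.869 in GF, against 0.668, 0.570, 0.652 and 0.659 in CV. These ranges overlapped, with the highest and the lowest value both in GF ovaries. The means were 0.686 ± 0.136 in GF ovaries and 0.637 ± 0.0452 in CV ovaries (SD, n = 5 and 4), above both testis groups.

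**Figure D2:**
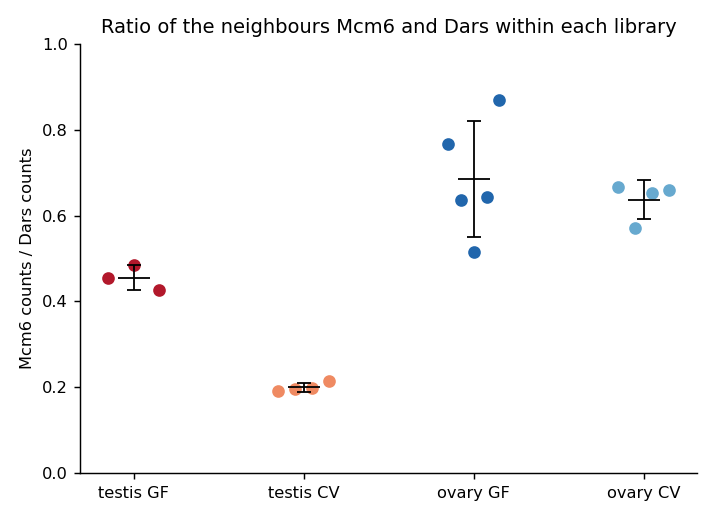
Counts of Mcm6 divided by counts of Dars in each library (vertical axis from 0), with mean and SD per group. The 3 GF testes lie between 0.425 and 0.484, the 4 CV testes between 0.190 and 0.215, and the ovaries of both groups between 0.514 and 0.869.

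Of the other 7 genes, Zranb3 and Ubxn4 had groups that did not overlap in the testis, with small differences. Zranb3, the fork remodeller, had 38.9, 37.4 and 38.0 CPM in GF testes, against 36.3, 35.3, 33.5 and 34.9 CPM in CV testes. Its groups did not overlap, and the log2 fold change was 0.14 (SE 0.0555). Ubxn4, the VCP adaptor, had 221, 227 and 227 CPM in GF testes, against 250, 235, 238 and 248 CPM in CV testes. Its GF libraries were all below its CV libraries by a small margin, with a log2 fold change of -0.09 (SE 0.0314). With Dars and Mcm6, 4 of 9 genes had groups that did not overlap, 2 higher and 2 lower in GF, against 17.4% of all genes tested (6.81% higher and 10.6% lower). Nothing is read from that count, since Dars and Mcm6 were chosen on this contrast.

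For the remaining genes the testis groups overlapped. R3hdm1, which encodes a protein with an R3H domain, averaged 168 ± 10.5 CPM in GF and 159 ± 4.22 CPM in CV (log2 fold change 0.10, SE 0.0362). Rab3gap1 averaged 54.5 ± 2.30 CPM in GF and 54.0 ± 2.49 CPM in CV (log2 fold change 0.03). Ccnt2 averaged 39.4 ± 1.09 CPM in GF and 41.8 ± 2.47 CPM in CV (-0.07). Cxcr4 was a low-count gene in the testis, with 81 to 117 counts in GF libraries and 72 to 86 in CV libraries, and a log2 fold change of 0.26 (SE 0.145). Lct was lower still, with 27 to 39 counts in GF libraries and 33 to 48 in CV libraries, and a log2 fold change of -0.43 (SE 0.220).

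Some single markers of cell types differed between the testis groups. The summed level of 6 endothelial markers was between 59.3 and 69.3 CPM in GF testes and between 51.9 and 57.8 CPM in CV testes, without overlap. The markers in that list were split, with 3 positive and 3 negative log2 fold changes between -0.32 and 0.47, and much of the difference in the sum was that of Vwf, at 28.6 ± 2.00 CPM in GF and 20.9 ± 3.25 CPM in CV. Vwf (log2 fold change 0.47, adjusted p = 0.00383) and Egfl7 (0.43, adjusted p = 0.00433) were called higher, and none of the list was called lower (edgeR; 4 of 6 at an unadjusted p under 0.05 in either direction). Of the germ cell markers, Uchl1 of spermatogonia (0.19, adjusted p = 0.0172) and Piwil1 of pachytene spermatocytes (0.26, adjusted p = 3.07e-07) were called higher (edgeR). Acrv1 (-0.16, adjusted p = 0.00125) and Spaca1 (-0.17, adjusted p = 0.0128) of spermatids were called lower. Their lists were split, with 5 positive and 3 negative values for spermatogonia and early spermatocytes. The split was 2 and 4 for pachytene spermatocytes, and 1 and 5 for spermatids. The summed levels of these lists overlapped. They were 668 to 691 CPM in GF and 669 to 704 CPM in CV for 8 markers of spermatogonia and early spermatocytes. For 6 pachytene markers they were 5500 to 5612 CPM in GF and 5411 to 5592 CPM in CV. For 6 spermatid markers they were 15419 to 16590 CPM in GF and 16124 to 17297 CPM in CV. Those of 6 proliferation markers overlapped too, at 903 to 911 CPM in GF and 880 to 914 CPM in CV. Of these, 3 had a positive and 3 a negative log2 fold change, and Mki67 was called higher (0.11, adjusted p = 0.0441, edgeR). The summed levels of 6 Sertoli, 6 Leydig and 6 leukocyte markers overlapped too. Of these lists, 6 Sertoli, 6 Leydig and 3 leukocyte markers were tested, and 0 were called (0 at an unadjusted p under 0.05, edgeR). All 6 Sertoli and all 3 leukocyte markers tested had negative log2 fold changes, and the Leydig markers were split 3 and 3. Single genes weighed heavily in some sums. The sum for spermatogonia and early spermatocytes was mostly Dmrtb1, at 545 CPM in GF and 559 CPM in CV. Ldhc, at 4099 CPM in GF and 4154 CPM in CV, made up most of the pachytene sum. Clu, at 878 CPM in GF and 894 CPM in CV, made up most of the Sertoli sum. Overlap of these sums therefore says little of their other markers. The part of the marker differences above in the values of Dars and Mcm6 was not tested. In whole tissue, fewer cells of a type and less RNA per cell cannot be told apart.

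Nnt, the mitochondrial transhydrogenase, whose gene is known to carry a deletion in some C57BL/6 substrains and not in others, also differed between GF and CV mice. It averaged 137 ± 4.70 CPM in GF testes and 107 ± 3.39 CPM in CV testes, and 124 ± 15.5 CPM in GF ovaries and 58.2 ± 1.97 CPM in CV ovaries. The log2 fold change was 0.38 in the testis (adjusted p = 4.32e-10) and 1.09 in the ovary (adjusted p = 0.000391). Whether a difference between mouse lines bears on Dars or Mcm6 was not tested.

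No partner of the MCM6 protein passed the test in the testis. Of 25 genes of the MCM helicase, its loaders and its partners, 0 were called between GF and CV testes (5 at an unadjusted p under 0.05, edgeR), against 8.08% of all genes. At that share few calls would fall in a list of this size, so nothing is read from the count. Positive log2 fold changes numbered 14 and negative ones 11, with a median of 0.00985. Mcm2, Mcm3, Mcm4, Mcm5 and Mcm7, the other subunits of the ring, had log2 fold changes of 0.05, 0.05, 0.19, 0.10 and -0.05. Mcm7, for example, averaged 212 ± 5.04 CPM in GF and 222 ± 4.48 CPM in CV. The largest value in the list was 0.22, below the 0.48 of Mcm6.

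None of the other synthetases was called lower in the testis. Of 24 cytosolic synthetases and complex partners tested, 16 had a positive and 8 a negative log2 fold change (3 at an unadjusted p under 0.05, edgeR). The list held 1 call, against 8.08% of all genes, and nothing is read from that count. The 1 called was higher: Farsb, the beta subunit of phenylalanyl-tRNA synthetase, averaged 96.9 ± 1.48 CPM in GF and 84.2 ± 3.06 CPM in CV (log2 fold change 0.22, adjusted p = 0.00017). The list's median was 0.0302 and its lowest value was -0.20, against the -0.70 of Dars. The difference between a member and its partners was not tested, since Dars and Mcm6 were chosen for their change.

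**Figure D3:**
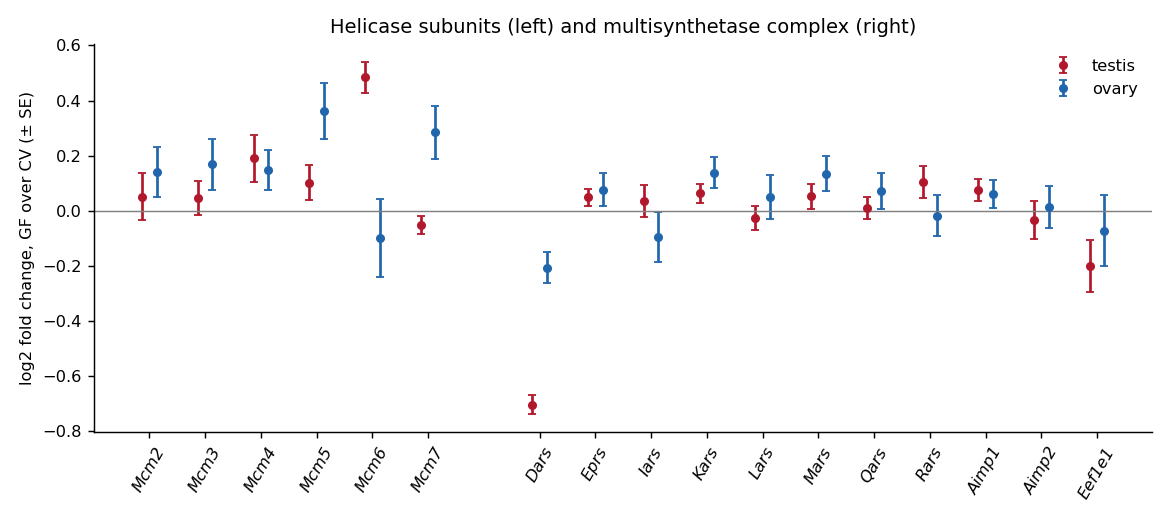
Log2 fold change of GF over CV (vertical axis, bars are SE) for the subunits of the MCM ring (left) and of the multisynthetase complex (right), with testis and ovary as separate points. In the testis Mcm6 at 0.48 and Dars at -0.70 lie away from the other subunits drawn with them, and in the ovary they lie at -0.10 and -0.21.

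Lists around the other neighbours held 1 call in the testis, against 8.08% of all genes, and nothing is read from counts in lists this small. No gene was called among 12 genes of fork remodelling (edgeR; 2 at an unadjusted p under 0.05), 13 of the RAB3 and RAB18 cycle (5), 9 of the CXCR4 axis (3) and 18 of endoplasmic reticulum degradation with VCP (5). Of 13 genes of P-TEFb and its control, 1 was called: Ell2, an elongation factor, averaged 168 ± 3.47 CPM in GF and 193 ± 4.27 CPM in CV (log2 fold change -0.18, adjusted p = 0.000184).

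In the ovary none of the 9 genes was called between GF and CV (edgeR; 2 at an unadjusted p under 0.05, Dars and Cxcr4), nor by DESeq2 or limma-voom. Of all 18095 genes tested, 0.177% were called, 20 higher and 12 lower. With the replicate number as a block, a fit without GF5 since its number has no CV partner, 91 genes were called, 34 higher and 57 lower. Again 0 of the 9 were called. Dars had 93.8, 90.8, 81.6, 88.9 and 82.3 CPM in GF ovaries, against 97.9, 102, 98.7 and 105 CPM in CV ovaries. Every GF ovary lay below every CV ovary, which made Dars the 1 gene of the 9 without overlap, against 2.76% of all genes tested (1.43% lower). The means were 87.5 ± 5.34 CPM in GF and 101 ± 3.31 CPM in CV (SD, n = 5 and 4), and the log2 fold change was -0.21 (SE 0.0560, 95% interval -0.32 to -0.10, adjusted p = 0.435). Over the alternatives the adjusted p ran between 0.079 and 0.919.

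Mcm6 varied more among GF ovaries than between the groups. It had 71.8, 57.7, 42.0, 57.3 and 71.5 CPM in GF ovaries, against 65.4, 58.1, 64.4 and 69.3 CPM in CV ovaries. The groups overlapped, and the library GF3 was the lowest of all. The log2 fold change was -0.10 (SE 0.142, 95% interval -0.38 to 0.18, adjusted p = 0.933), and it was 0.01 without GF3.

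Cxcr4 had 9.23, 15.9, 18.4, 21.6 and 12.4 CPM in GF ovaries, against 10.8, 8.58, 8.21 and 8.71 CPM in CV ovaries. Of the GF ovaries, 4 lay above every CV ovary and GF1 lay among them. The log2 fold change was 0.77 (SE 0.225, 95% interval 0.32 to 1.21, adjusted p = 0.527), with adjusted p-values between 0.117 and 0.964 over the alternatives. Leukocytes and endothelial cells can carry CXCR4. The summed level of 6 leukocyte markers was 59.1 to 111 CPM in GF ovaries and 78.2 to 120 CPM in CV ovaries. That of 6 endothelial markers was 295 to 345 CPM in GF and 263 to 329 CPM in CV, and both overlapped. Of 4 leukocyte markers tested, 2 had a positive and 2 a negative log2 fold change. Of 6 endothelial markers 5 were positive and 1 negative (2 at an unadjusted p under 0.05, 0 called, edgeR). The part of either cell type in the Cxcr4 values was not tested. Of the CXCR4 axis, 0 of 9 genes were called in the ovary (0 at an unadjusted p under 0.05, edgeR), and Cxcl12, the ligand, averaged 61.5 ± 9.31 CPM in GF and 86.7 ± 53.8 CPM in CV.

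The other genes showed no call in the ovary and overlapped between the groups. Zranb3 averaged 33.2 ± 3.21 CPM in GF and 30.4 ± 2.74 CPM in CV (log2 fold change 0.13, adjusted p = 0.850), and Rab3gap1 82.9 ± 3.61 CPM in GF and 76.2 ± 4.11 CPM in CV (0.12, adjusted p = 0.770). R3hdm1, Ubxn4 and Ccnt2 had log2 fold changes of 0.06, -0.03 and -0.03. Lct had 1 to 14 counts in GF ovaries and 5 to 24 in CV ovaries, and its 95% interval of -1.95 to 0.48 was wide. The ring subunits Mcm2, Mcm3, Mcm4, Mcm5 and Mcm7 had log2 fold changes of 0.14, 0.17, 0.15, 0.36 and 0.28, and the helicase list as a whole a median of 0.14 with 21 positive and 4 negative values and 0 called (3 at an unadjusted p under 0.05, edgeR). None of the other lists had a called gene in the ovary (0 to 2 in each at an unadjusted p under 0.05, edgeR), against 0.177% of all genes.

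The GF to CV difference of the testis less that of the ovary, from the fit of all 16 libraries, was -0.52 (SE 0.0721) for Dars and 0.56 (SE 0.179) for Mcm6 on the log2 scale. It was -0.53 (SE 0.303) for Cxcr4, 0.29 (SE 0.652) for Lct and between -0.11 and 0.02 for the other genes. These values contain the contrast on which Dars and Mcm6 were chosen and were not tested.

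**Figure D4:**
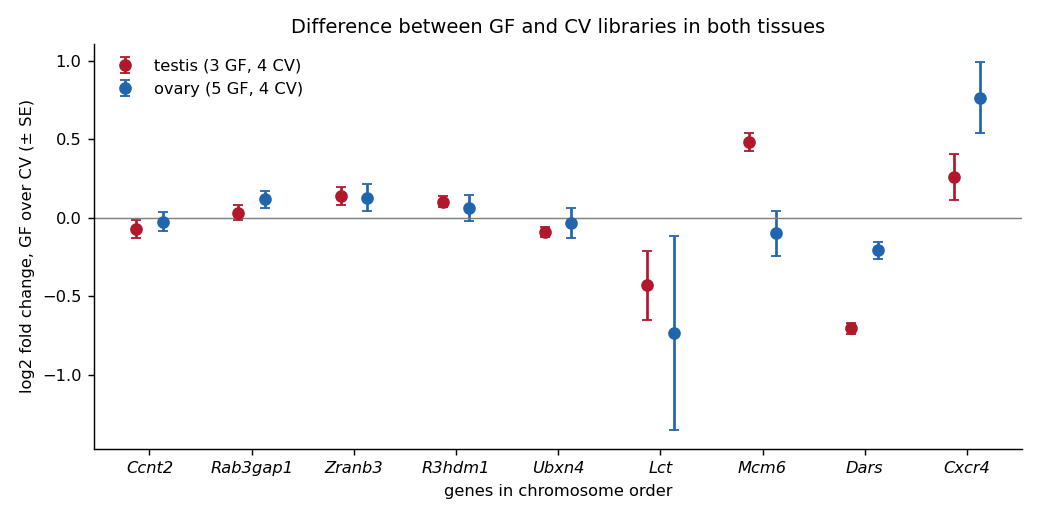
Log2 fold change of GF over CV for each gene in chromosome order (vertical axis, bars are SE), with the testis (3 GF, 4 CV) and the ovary (5 GF, 4 CV) side by side. Dars lies at -0.70 in the testis and -0.21 in the ovary, Mcm6 at 0.48 and -0.10, and the 5 genes from Ccnt2 to Ubxn4 between -0.09 and 0.14 in both tissues.

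Between the tissues, testis against ovary, the 9 genes split into 5 that were higher and 4 that were lower. Dars, R3hdm1, Ubxn4, Zranb3 and Lct were higher in CV testes than in CV ovaries, and Mcm6, Rab3gap1, Cxcr4 and Ccnt2 were lower. All 9 were called, but so were 90.3% of all 21977 genes tested, 46.3% higher and 44.0% lower. Without TMM, on library totals alone, the median of all genes moved by -0.807 in the CV comparison and by -0.789 in the GF comparison, and the share of called genes that were higher in testis was 38.6% in CV and 38.8% in GF, against 51.3% with TMM. The tissue values below are relative to the TMM scale. The tissue comparisons share libraries with the GF to CV comparisons.

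R3hdm1 averaged 159 ± 4.22 CPM in CV testes and 61.1 ± 3.09 CPM in CV ovaries, a log2 fold change of 1.38 (SE 0.0739, adjusted p = 3.26e-12). Ubxn4 averaged 243 ± 7.43 CPM in CV testes and 119 ± 6.26 CPM in CV ovaries (1.02, SE 0.0827, adjusted p = 1.41e-09). Ccnt2 went the other way, with 41.8 ± 2.47 CPM in CV testes and 137 ± 6.15 CPM in CV ovaries (-1.71, SE 0.0610, adjusted p = 7.24e-15). These 3 genes kept nearly the same difference in GF mice, at 1.40, 0.95 and -1.78. On library totals alone Ubxn4 in GF was 0.16 and was not called.

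Rab3gap1 averaged 54.0 ± 2.49 CPM in CV testes and 76.2 ± 4.11 CPM in CV ovaries (log2 fold change -0.50 in CV, adjusted p = 8.87e-08, and -0.60 in GF, adjusted p = 1.21e-08). Cxcr4 averaged 4.19 ± 0.374 CPM in CV testes and 9.09 ± 1.19 CPM in CV ovaries (-1.12, adjusted p = 8.77e-05), and the log2 fold change was -1.64 in GF (adjusted p = 1.80e-06). Lct averaged 2.20 ± 0.356 CPM in CV testes and 0.665 ± 0.432 CPM in CV ovaries (1.71, adjusted p = 0.00146), and 2.00 in GF (adjusted p = 0.000798). On library totals alone its value in CV was 0.90 and was not called. Zranb3 differed least, at 0.21 in CV (adjusted p = 0.0182) and 0.20 in GF (adjusted p = 0.0249), its ranges overlapped, and on library totals alone it was -0.60 in CV and -0.59 in GF. Its call was also lost in CV without the ovary library CV1 or CV2 (0.17 and 0.16), and in GF without the ovary library GF2 or GF3 (0.16 and 0.18) or the testis library GF1 or GF3 (0.18 and 0.20). With no filter on low counts it was lost in GF too (0.17, adjusted p = 0.0649).

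The tissue differences of Dars and Mcm6 were of unequal size in CV and GF mice. That inequality contains the GF to CV difference of the testis on which both genes were chosen, and it was not tested. Dars was higher in testis by 0.89 in CV (SE 0.0501, adjusted p = 7.32e-12) and by 0.37 in GF (SE 0.0512, adjusted p = 2.27e-06). On library totals alone these were 0.08, not called, and -0.42. Mcm6 was lower in testis by a log2 fold change of -0.79 in CV (SE 0.126, adjusted p = 1.60e-05). In GF its difference was -0.23 (SE 0.130, 95% interval -0.48 to 0.03, adjusted p = 0.110), so that 8 of 9 genes were called there, against 89.8% of all genes. Without the ovary library GF3 the GF value was -0.33 (adjusted p = 0.00276). By group mean, Dars ran in the order testis CV, testis GF, ovary CV, ovary GF, and no neighbouring groups overlapped. Mcm6 ran in the order ovary CV, ovary GF, testis GF, testis CV, and only the last step was free of overlap.

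Genes were compared per kilobase of merged exon length, which joins the exons of all annotated transcripts of a gene. On that scale Ubxn4 and Dars were the highest of the 9 in every group. In testes Ubxn4 reached 48.3 ± 0.645 CPM per kb in GF and 52.1 ± 1.60 in CV, and Dars 25.9 ± 0.572 in GF and 42.8 ± 1.35 in CV. In ovaries Ubxn4 reached 25.1 ± 3.66 CPM per kb in GF and 25.6 ± 1.34 in CV, and Dars 20.1 ± 1.23 in GF and 23.1 ± 0.758 in CV. Mcm6 came next after these in every group, at 11.0 ± 0.901 CPM per kb in GF testes, 7.98 ± 0.440 in CV testes, 12.9 ± 2.65 in GF ovaries and 13.8 ± 0.996 in CV ovaries. In testes R3hdm1, Rab3gap1, Zranb3 and Ccnt2 lay between 3.19 and 5.35 CPM per kb, Cxcr4 at 2.74 in GF and 2.32 in CV, and Lct at 0.253 in GF and 0.344 in CV. In ovaries Ccnt2 stood at 10.9 in GF and 11.1 in CV and R3hdm1 at 2.02 in GF and 1.94 in CV. The order depends on the lengths: 31486 bases for R3hdm1, against 4358 for Dars, 4659 for Ubxn4 and 4666 for Mcm6. Where the transcripts present are shorter than the merged length, the value per kb is too low, and the place of R3hdm1 is therefore uncertain. The exon lengths are those of the annotation used here, and the one behind the counts is not given in the sources used here.

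Among the partners, tissue differences were common and ran both ways. The counts below stand against 46.3% of all genes called higher and 44.0% called lower in CV testes. In CV, 15 of 25 helicase genes were called higher and 6 lower in testis. Dbf4, the activator of the origin kinase CDC7, averaged 120 CPM in testes and 21.8 CPM in ovaries (log2 fold change 2.46), and Mcm7 222 CPM in testes and 50.5 CPM in ovaries (2.14), while Mcm2 (-1.41), Mcm4 (-1.38) and Mcm3 (-0.35) were lower in testis, as Mcm6 was. Of the synthetases 12 were higher and 6 lower, led by Vars (3.69) and Nars (-1.36). All 9 genes of the CXCR4 axis were lower in testis, as Cxcr4 was, among them Arrb1 (-1.24), Grk2 (-1.31), Mif (-1.29) and Gnai2 (-0.99). Of P-TEFb 8 were higher and 5 lower, led by Larp7 (4.20), of the RAB3 and RAB18 cycle 9 higher and 3 lower, led by Rab3il1 (5.15), and of degradation with VCP 14 higher and 4 lower, led by Ube2j1 (3.18). On library totals alone these values shift by about the median given above, so positive values below that size change direction.

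The wider neighbourhood held other differences in the testis. In the 2 Mb interval that holds the 9 genes, 5 further rows were tested there (3 at an unadjusted p under 0.05, edgeR). The 1 called, against 8.08% of all genes, was AC162449.1, which the annotation names Gm26686. It is a long noncoding RNA on the minus strand at chr1:128770599-128774421, 178.3 kb beyond the start of Cxcr4. It had 0 counts in each of 3 GF testes, against 26, 31, 30 and 35 counts in CV testes, where it averaged 1.56 ± 0.141 CPM. With a limit of 3 counts over the GF group (0.0509 CPM), it was at least 30.6-fold lower in GF testes. It had at most 1 count in any ovary library, and it is singled out here after its values were seen. Mgat5, a glycosyltransferase of branched N-glycans, had a log2 fold change of 0.10 in the testis and -0.06 in the ovary, the pseudogene Rpl28-ps1 -0.16 and 0.02, and Mir128-1, within R3hdm1, -0.22 and -0.44, none called. Rpl28-ps1 is a copy of Rpl28 whose reads the counting could split, so its values are uncertain. Ysk4 (a kinase also named Map3k19) had 179 to 229 counts in GF ovaries and 183 to 211 in CV ovaries, and at most 1 count in any testis library. The small nucleolar RNA snoU6-53 had 13 to 20 counts in GF testes and 16 to 29 in CV testes, and was not called.

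Outside that interval but within 5 Mb of Mcm6, 51 genes were tested in the testis, of which 8 were called higher and 4 lower, against 8.08% of all genes (3.67% higher and 4.41% lower). In the ovary 50 were tested, of which 0 were called (7 at an unadjusted p under 0.05, edgeR), against 0.177% of all genes.

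**Figure D5:**
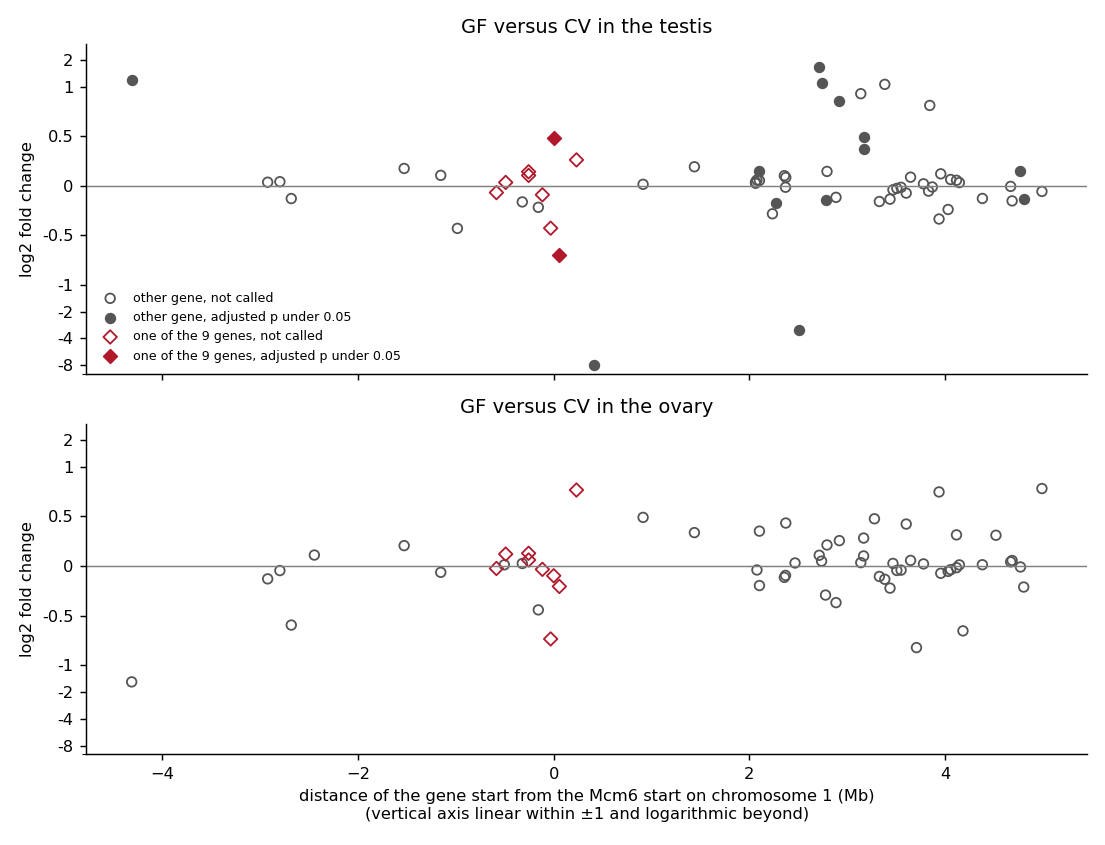
Log2 fold change of GF over CV (vertical axis, linear within 1 of 0 and logarithmic beyond) against the distance of each gene's start from that of Mcm6 in Mb, for the testis (above) and the ovary (below). Diamonds are the 9 genes and circles other genes, filled where the adjusted p was under 0.05. The lowest testis point is AC162449.1, drawn at its fitted value, which depends on the prior count because its GF libraries are at 0.

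Across the 16 libraries, after the mean of each tissue was taken off the log2 CPM (with 0.5 CPM added), Dars and Mcm6 had a Pearson r of -0.48, Zranb3 and R3hdm1, which face each other, 0.69, Ubxn4 and Lct 0.73, and R3hdm1 and Ubxn4 -0.63. The points share libraries, depth and the GF to CV difference. By the same measure the named genes most like Dars were Hist1h4c (r = 0.95), SLC25A37, a mitochondrial iron carrier (0.94), Daam1, a formin (0.94), Snapc1, of the complex that transcribes small nuclear RNAs (0.93), and Hist1h4j (0.92), with 5 predicted genes passed over. Histone H4 genes are near-identical copies whose reads the counting could split, so the values of Hist1h4c and Hist1h4j are uncertain. Those most like Mcm6 were Neurl2 (0.84), Mfap1a, a splicing factor (0.79), Trip12, a ubiquitin ligase (0.78), Ifitm7 (0.77) and Kidins220, a scaffold of neurotrophin signalling (0.77), with 2 passed over.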

How the data were processed

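The authors deposited a table of raw counts of exon reads per gene for the 16 libraries. Per the labels' protocols, libraries were made from total RNA with a stranded kit after ribosomal RNA depletion and sequenced as paired reads, and per the submitters' processing notes reads were aligned with STAR 2.4.0i to mm10. How reads were counted, and with which annotation and strand setting, is not given in the sources used here.

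Gene positions were joined by gene identifier from GENCODE M21 (GRCm38), which held 36308 of 38087 rows. Differences were tested on the counts with edgeR 4.0.16 in R 4.3.3 (quasi-likelihood F test, robust, TMM scaling, filterByExpr, Benjamini-Hochberg over all genes tested, called at an adjusted p under 0.05). GF and CV were compared within the 9 ovary or 7 testis libraries, and tissues in a fit of all 16 libraries in 4 groups. Levels are CPM from TMM library sizes over all 16 libraries. DESeq2 1.42.0, limma-voom (limma 3.58.1), other scalings, no filter, each library left out and the replicate number as a block were tried as alternatives. The block leaves out a library whose number no other library of the fit carries. The GF to CV fits were also run on simulated counts with known log2 changes. At a change of 0.5, 33% of changed genes were called in the ovary and 85% in the testis. At a change of 1 these shares were 87% and 100%. Unchanged genes made up 3.23% of the simulated calls in the ovary and 8.42% in the testis. Chi-square statistics per degree of freedom between libraries of a group were 2.37 to 34.3, so every pair differed by more than counting noise.

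The replicate numbers of the labels were checked for pairing between GF and CV. In the ovary same-numbered libraries deviated together, with correlations of 0.375, 0.228, 0.185 and 0.356 between deviations from the group means, all over 0.1, so the blocked values are given with the ovary counts where they differ. GF1, GF2 and GF4 deviated most like the CV ovary of their own number, while GF3 deviated most like CV2. The labels do not say what the numbers mark.

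The 9 genes and the gene lists were chosen with earlier results of these data known, so no value over a list is a test. The text names all 9 genes, the other named genes tested in the 2 Mb interval around them, up to 4 called genes per list by the smallest p, the 5 named genes most like Dars and Mcm6, and Nnt. The other subunits of the MCM ring and Cxcl12 are named outside that rule, after their values were seen.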

Additional observations from a re-analysis of the deposited data

Results flagged for a closer look

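Among 27 groups of 4 or 5 libraries in which the CPM of the 9 genes could be screened for a sample far from the others, 1 stood out. Lct in CV testes was 1.677 CPM in the library CV3, against 2.333 CPM in the nearest other library, a gap of 0.836 of the group's range. Chance gives about 1 in 20 such groups, and the values rest on 33 and 44 counts.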

How the results depend on the processing

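In the testis Dars stayed between -0.73 and -0.69 and Mcm6 between 0.41 and 0.53 with any 1 library left out, and both kept their direction under every alternative run. With 1 library left out, 996 to 2084 genes were called in the testis and 25 to 33 in the ovary, and 2 or 3 of the 9 genes in the testis. The added gene was Ubxn4 without CV2, and R3hdm1 without CV4 or GF2 and on library totals alone. Nothing is read from the testis calls of the 9, since the set was chosen with this contrast in view. All 16 libraries in one fit gave 122 genes called in the testis, with 1 of the 9, and 93 in the ovary. DESeq2 called 92 genes in the ovary, 46.7% of them higher, and the replicate block 91, 37.4% of them higher, against 62.5% of 32 in the fit reported. In the testis the numbers shared by GF and CV libraries did not deviate together (correlations -0.0258, 0.0339 and -0.0249). There the block, fitted without CV4 since its number has no GF partner, left Dars at -0.70 and Mcm6 at 0.52. It changed no call of the 9 genes in any comparison.

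In the ovary 3 differences near 0 changed sign: Ccnt2 (0.000432 with the replicate block, and -0.066 to 0.0017 with 1 library left out, above 0 without GF5), Mcm6 (-0.17 to 0.0061) and Ubxn4 (-0.12 to 0.011), both above 0 without GF3. In the testis Rab3gap1 did so too (-0.0026 to 0.054 with 1 library left out, below 0 without GF1). On library totals alone the tissue difference reversed for Zranb3 (-0.60 in CV, -0.59 in GF) and for Dars in GF (-0.42), with the lost calls given in the report, and Mcm6 in GF was called at -1.01. With raw totals mean CPM was 83.4 and 135 for Dars and 37.9 and 27.0 for Mcm6 in GF and CV testes, and 112 and 128 for Dars and 76.6 and 81.8 for Mcm6 in GF and CV ovaries. With RLE size factors Dars was 120 and 197 in GF and CV testes and 96.2 in CV ovaries, and Mcm6 39.4 in CV testes. These follow from the scaling. Depth limits Lct and Cxcr4, and the ovary libraries hold fewer counts than the testis libraries.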
